A study of Mus musculus with 12 samples.

Results

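The cadherins and protocadherins were examined in tissue peeled off the surface of embryonic mouse hearts. Members were the rows of the deposited table whose name begins with Cdh or Pcdh and a digit, or with Pcdha, Pcdhb or Pcdhg, leaving out Cdh5 and Cdh19, with a mean value of at least 0.5 over the 12 libraries. The rule chose 47 of the 17637 genes, which were 15 cadherins, 11 solitary protocadherins and 21 genes of the protocadherin clusters. A further 7 family rows (Cdh7, Cdh9, Cdh15, Cdh17, Cdh22, Cdh26 and Pcdh8) lay below the minimum, with 28 to 70 reads each over the 12 libraries. All embryos were wild type, of the CD1 stock, at stage E16.5. The artery group (OFT in the labels) was mesothelium with the tissue under it, taken where the great arteries leave the heart. The ventricle group was epicardium with its subepicardial tissue. There were 6 libraries per group, and a library was a pool over 1 litter, with both tissues taken from each of litters 1 to 6. Values are a normalized signal scaled to library size, from which whole reads could be recovered. The shallowest libraries were artery 1, with 6.77 M reads, and artery 6, with 7.97 M, while the other 10 held 16.45 to 22.11 M.

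Cadherins are calcium-dependent adhesion proteins that hold neighbouring cells together through repeats in their extracellular part. The classical cadherins, of type I and type II, bind catenins inside the cell and through them the actin skeleton. Protocadherins have more extracellular repeats and no classical catenin-binding tail. The solitary genes (the delta families among them) lie scattered through the genome, while the clustered genes lie side by side in alpha, beta and gamma groups whose products act in recognition between cells, best known from neurons. In the heart, N-cadherin (Cdh2) joins heart muscle cells and is also present in the epicardium, and Cdh5 and Pcdh12 are genes of endothelium.

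The artery and ventricle layers differed in the levels of family members, and reads of all 47 were found in both. Cdh18, Pcdh7 and Cdh4 were among the members higher in artery, and Pcdh20, Pcdh17, Pcdh15 and Cdh8 among those lower, each by at least 1 on the log2 scale used. Differences are artery minus ventricle on the log2(value + 1) scale with the litter as a block, tested by limma over all 16037 genes with a mean of at least 0.5, and a gene was called at an adjusted p (Benjamini and Hochberg) below 0.05. On this scale the change of a low gene comes out smaller than it is, so the order of members by size depends on it: by edgeR on the reads the most negative were Cdh16 (-2.6) and Cdh20 (-1.67), which are at -0.70 and -0.87 here. Of the 47 members, 23 were called (48.9%), against 23.4% of all tested genes. In the same fit 7 members were called with a log2 difference of at least 1 in size, as were 6.2% of all genes. In artery 13 members were higher, where 11.6% of all genes were, and 10 were lower, where 11.8% of all genes were. The artery libraries all lay above the ventricle libraries for 9 members (7.43% of all genes) and all below for 1 member (4.05% of all genes). The members' median difference was 0.28, against -0.03 over all tested genes. Of the 23 calls, 12 held whichever litter was left out. The count of higher members was 7 without litter 2 or litter 3, 8 without litter 5 or litter 6 and 20 without litter 1, and the count of lower members was 6 without litter 2, 3 or 5. The number of all genes called moved as well, being lowest without litter 3 and highest without litter 1, as given in the closing section. These shifts are thus no result about the members. Within litters 2 to 5, whose libraries were both run in a lane of the same number, 19 members were higher and 7 lower, where 13.8% and 13.4% of all genes were. Within the 3 litters of lane 2 the counts were 10 higher and 0 lower, where 6.62% and 4.55% of all genes were.

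**Figure D1:**
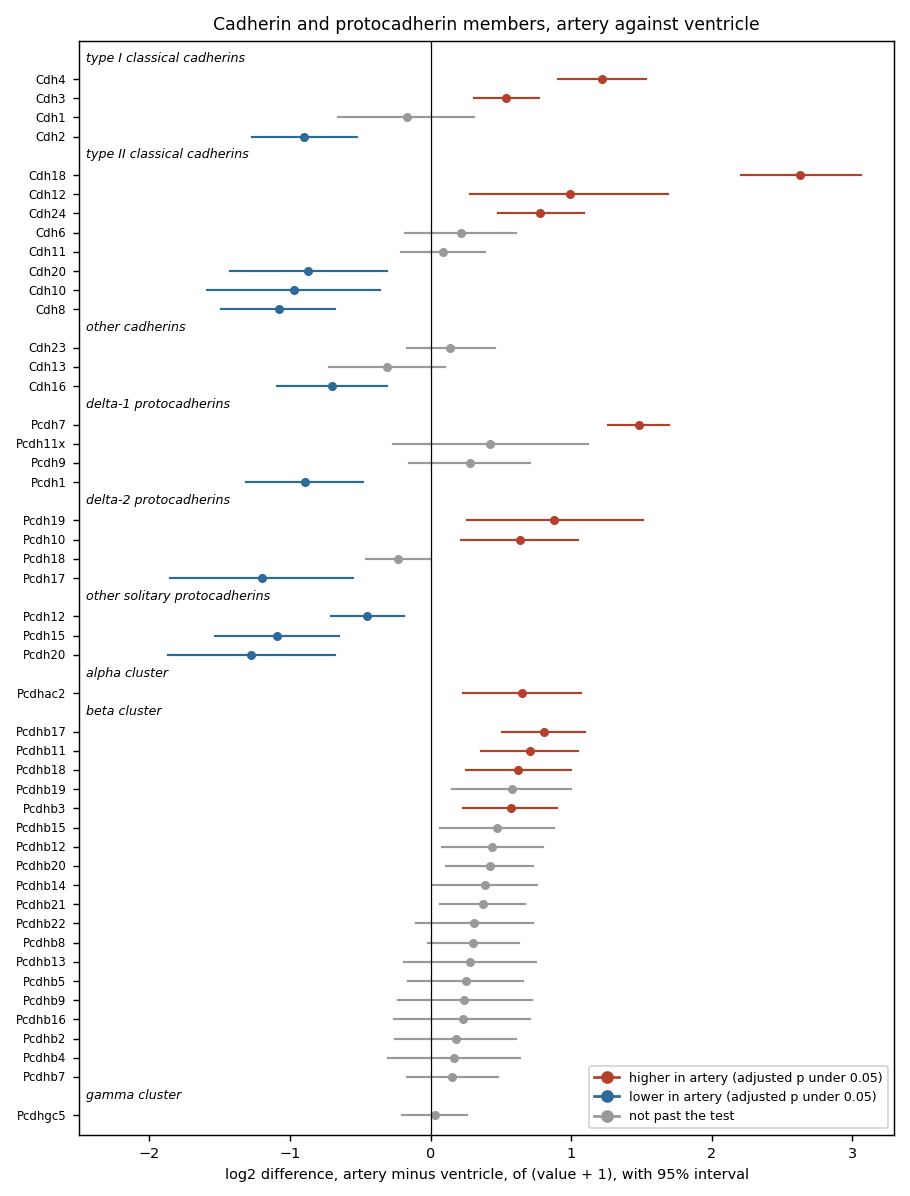
Log2 difference between artery and ventricle of (value + 1) for the 47 members by class, with the 95% interval from limma and the litter as a block (6 litters). Cdh18 stands farthest to the right at 2.63, and all 19 beta cluster genes lie to the right of 0, 4 of them past the test.

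Markers of the cells in these layers also moved, and their part in the members' differences was not tested. Mesothelial and epicardial markers were lower in artery for 13 of 13 genes and higher for 0. Their summed signal was 1760 to 3580 in artery and 2940 to 5560 in ventricle, and artery 4 held the highest artery value. Smooth muscle markers were higher for 6 of 7, summing to 1800 to 3680 in artery and 499 to 801 in ventricle. Heart muscle markers were lower for 8 of 10, summing to 3560 to 13400 and 11000 to 28600. Schwann cell markers were lower for 6 of 7 (S100b was higher), with sums of 18.2 to 34.9 and 41.7 to 52.6. Autonomic neuron markers were higher for 3 of 8, with sums of 19.3 to 51.2 and 7.58 to 11. Of 7 endothelial markers 1 was lower and 0 higher, and of 7 fibroblast markers 1 was higher and 0 lower. Of 7 blood and macrophage markers 3 were higher and 1 lower, led by globins, which were highest in artery 6. Of the 6 thymus and airway epithelium markers tested 3 were higher and 1 lower, and of 2 skeletal muscle markers tested 1 was higher. No listed marker in the table was at 0 reads in all libraries, and the sums above show those of the labelled mesothelium and epicardium in every library of both groups. In pooled tissue, fewer cells of a type and less RNA per cell cannot be told apart.

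Among the type I classical cadherins, which bind mostly their own kind, P-cadherin (Cdh3) and N-cadherin (Cdh2) moved in opposite directions. The signal of Cdh3 (ENSMUSG00000061048, 8:106510891-106557297 in GRCm38, plus strand) was 141 at the lowest, 179 at the median and 196 at the highest in artery, and 102, 116 and 135 in ventricle. The groups did not overlap, and artery was higher in 6 of 6 litters. The means were 172 ± 22.3 and 118 ± 14.3 (SD, n = 6 each), which gave 0.54 ± 0.10 on the log2 scale (SE, adjusted p = 0.00543, limma). Cdh2 (ENSMUSG00000024304, chromosome 18) was at 101, 160 and 218 in artery and at 204, 297 and 467 in ventricle. The groups overlapped at their edge, since artery 2 and artery 4 reached the lowest ventricle libraries, and litter 4 had 204 in both tissues. Its means were 159 ± 47.0 and 298 ± 96.8, a log2 difference of -0.90 with SE 0.16 (adjusted p = 0.00462, limma). Heart muscle markers were lower in artery for 8 of 10 genes (Myh6 and Nppa were not called) and mesothelial and epicardial markers for 13 of 13. Their part in the Cdh2 difference was not tested.

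R-cadherin (Cdh4), known from retina and brain, was low but separated the tissues. Its signal in artery was 5.18 at the lowest, 6.80 at the median and 10.8 at the highest, against 1.89, 2.39 and 3.14 in ventricle. No artery library reached the ventricle range, and the log2 difference was 1.22 ± 0.14 (SE, adjusted p = 0.000369, limma, higher in 6 of 6 litters). E-cadherin (Cdh1), the main cadherin of most epithelia, lies 46.1 kb downstream of Cdh3 on chromosome 8 and was low in both tissues. Its means were 2.01 ± 1.46 in artery and 2.11 ± 0.812 in ventricle, with a log2 difference of -0.17 (95% interval -0.66 to 0.31, adjusted p = 0.599, limma). In artery 1 it had 1 read. Its sign depended on litter 1: without it the difference was 0.01.

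Levels of different genes were compared per kilobase of exon, using the union of annotated exons in GENCODE M21. The alpha and gamma rows were left out for a reason given with the clusters. Among the 45 members with a usable length, Cdh11, Cdh2 and Cdh3 led both tissues per kilobase. Together they made up 63.2% ± 1.51 of the summed level of these members in artery (SD, n = 6), against 65.9% ± 3.27 in ventricle (SD, n = 6). Cdh5, left out by the rule, was at 41.5 per kilobase in artery and 53 in ventricle, where Cdh11 was at 47.9 and 45.6. The order of Cdh11, Cdh2 and Cdh3 differed between tissues. The share of Cdh11 was 28.4% ± 3.42 in artery, against 27.6% ± 6.13 for ventricle. That of Cdh3 was 23.1% ± 1.27 in artery and 16.2% ± 1.77 in ventricle, and that of Cdh2 was 11.6% ± 2.79 and 22.1% ± 6.58. In artery the share of Cdh3 lay above that of Cdh2 by more than their spread, while in ventricle Cdh2, at 15.2% to 33.8%, overlapped both Cdh11 (16.8% to 33.7%) and Cdh3 (13.8% to 18.3%). Pcdh18 followed at 7.23% ± 0.788 and 8.64% ± 1.14. These shares are descriptions and were not tested.

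**Figure D2:**
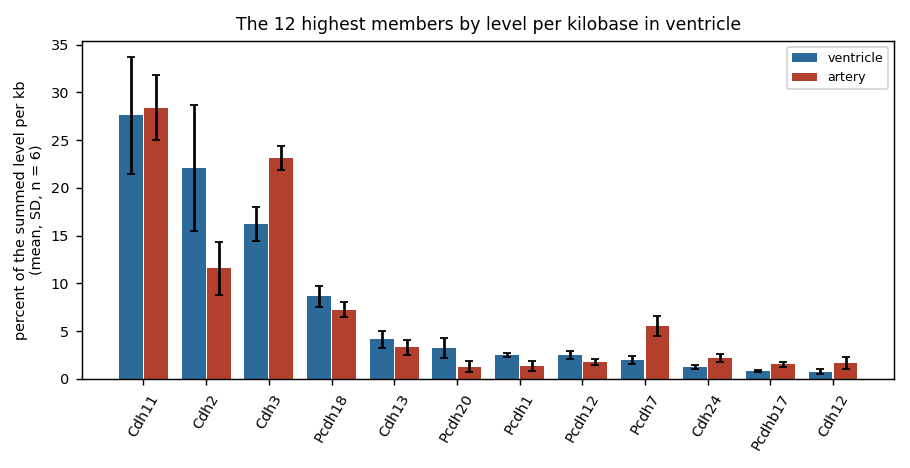
Share of the summed level per kilobase of 45 members (percent, bars are means and error bars SD over 6 libraries) for the 12 members that are highest in ventricle. The bars of Cdh3 and Pcdh7 are taller in artery (23.1% and 5.55%) than in ventricle (16.2% and 1.98%), and that of Cdh2 is taller in ventricle (22.1%).

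Of the 8 type II classical cadherins, 3 were higher in artery (11.6% of all genes), 3 lower (11.8% of all genes) and 2 not past the test. Cdh11 (OB-cadherin, a cadherin of mesenchyme and bone-forming cells) had the highest signal of the type, at 366, 438 and 481 in artery (lowest, median, highest) and 257, 424 and 483 in ventricle. The groups lay over each other, and the log2 difference was 0.09 (95% interval -0.21 to 0.39, adjusted p = 0.663, limma). Ventricle 2 was the lowest library, and the difference was -0.03 without litter 2. Cdh24, which is known to bind catenins, was at 9.23, 13.1 and 15.6 in artery and 5.64, 7.03 and 8.39 in ventricle. Every artery library lay above every ventricle library, by 0.78 ± 0.14 on the log2 scale (SE, adjusted p = 0.00331, limma). Cdh6 (K-cadherin, known from kidney) was at 3.71 ± 1.61 and 3.08 ± 1.5 (log2 difference 0.22, 95% interval -0.18 to 0.61).

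Cdh18, a type II cadherin known mostly from the central nervous system, had the largest difference of the family. Its signal in artery was 3.71 at the lowest, 7.19 at the median and 8.58 at the highest, and in ventricle 0.0702, 0.146 and 0.274. The groups were far apart in all 6 litters, with artery 4 and artery 5 the lowest artery libraries. In reads, the artery libraries held 47 to 138 each (505 in all) and the ventricle libraries 1 to 4 each (13 in all). Scaled for depth, the pooled reads were 50.8-fold higher in artery (95% exact interval 29.4 to 96.0, which covers counting error only). The log2 difference on the compressed scale was 2.63 ± 0.19 (SE, adjusted p = 3.11e-05, limma), and 5.62 by edgeR on the reads. In artery 1 to 6 the Cdh18 signal was 6.89, 7.48, 7.98, 3.84, 3.71 and 8.58. The summed autonomic neuron markers were 23.9, 24.3, 20.4, 19.3, 42.5 and 51.2 in the same order. The summed smooth muscle markers were 2880, 2510, 3680, 1800, 2400 and 3020. The part of either cell type in the difference was not tested.

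Cdh18 shares a stretch of chromosome 15 with Cdh12 and Cdh10, 2 other type II cadherins best known from brain, and the 3 neighbours did not move together. Cdh12 ends 0.959 Mb before Cdh18 begins, and Cdh10 ends 1.44 Mb before Cdh12. Cdh12 was at 6.31, 17 and 28.8 in artery and 5.27, 7.89 and 11.4 in ventricle (0.99 ± 0.31 on the log2 scale, SE, adjusted p = 0.0478, limma). Artery 1 was the library within the ventricle range, and the call of Cdh12 was lost without litter 2, 3, 4, 5 or 6. Cdh10 went the other way, at 1.23, 4.00 and 13.8 in artery and 8, 8.98 and 10.8 in ventricle. Artery 4 had the highest Cdh10 signal of all 12 libraries, and the other 5 artery libraries lay below every ventricle library. Its log2 difference was -0.97 ± 0.27 (adjusted p = 0.0299), which was lost without litter 2, 3, 5 or 6 and was -1.27 without litter 4.

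The promoter windows of Cdh18 and Cdh10 are shown because these neighbours had opposite differences. Each window holds 250 bases before and 50 bases after the RefSeq start (GRCm38.p6), read 5′ to 3′ on the gene's strand, at chr15:23036213-23036512 (plus strand) for Cdh18 and chr15:18820079-18820378 (plus strand) for Cdh10. Capitals mark any of 4 motifs searched on both strands, namely CACCTG (an E-box bound by Snai and Zeb factors), GGAATG (the core bound by TEAD factors), GGGCGG (the GC box bound by Sp factors) and TATAAA (the TATA box). None of these motifs overlapped another in these windows.
Cdh18: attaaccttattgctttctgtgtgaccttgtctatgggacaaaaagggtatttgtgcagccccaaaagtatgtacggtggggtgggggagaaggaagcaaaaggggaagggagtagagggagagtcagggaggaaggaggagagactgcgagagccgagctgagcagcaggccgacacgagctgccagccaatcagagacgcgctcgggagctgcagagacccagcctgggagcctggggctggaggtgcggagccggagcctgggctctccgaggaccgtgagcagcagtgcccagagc
Cdh10: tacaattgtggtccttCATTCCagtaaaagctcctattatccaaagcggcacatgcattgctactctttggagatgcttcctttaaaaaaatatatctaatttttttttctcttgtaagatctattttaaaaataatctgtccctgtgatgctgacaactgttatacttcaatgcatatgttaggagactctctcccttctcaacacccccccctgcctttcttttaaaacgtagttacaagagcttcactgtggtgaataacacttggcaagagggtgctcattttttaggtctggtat
The Cdh18 window held none of the 4 motifs and 60.3% G and C with 12 CpG dinucleotides. The Cdh10 window held 1 match to GGAATG, read as CATTCC, and 37.7% G and C with 2 CpG dinucleotides. Over all 32851 RefSeq promoter windows the median was 52.7% G and C with 7 CpG dinucleotides, and GGAATG was present in 14.7% of windows. Both starts lie inside the annotated gene spans, and the table does not tell which start was in use.

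The other 2 called type II genes, Cdh8 and Cdh20, were lower in artery. Cdh8, which works at synapses of sensory neurons, was at 0.943, 1.14 and 3.54 in artery and 2.58, 4.40 and 5.49 in ventricle. Artery 4 was the library inside the ventricle range, and all 6 litters were lower in artery (log2 difference -1.08 ± 0.18, SE, adjusted p = 0.00289, limma). Cdh20, known from neural tube and brain, was at 0.439, 0.537 and 1.28 in artery and 0.76, 2.11 and 4.45 in ventricle (-0.87 ± 0.25 on the log2 scale, adjusted p = 0.0323, call lost without litter 2, 3, 5 or 6).

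Among the cadherins outside the classical types, T-cadherin (Cdh13), which is held in the membrane by a lipid anchor, was abundant in both layers. Its signal was 35.9, 64.6 and 95 in artery and 62, 72.9 and 110 in ventricle, with wide overlap and a log2 difference of -0.31 (95% interval -0.72 to 0.10, adjusted p = 0.253, limma). The Cdh13 log2 difference was -0.58 without litters 1 and 4, with adjusted p = 0.0163 (limma). Artery 4 was the highest artery library for Cdh13 and lay above its litter's ventricle library (95 and 66.3). That omission thus lowers the difference by construction, and its p adds no support. Cdh16, the kidney cadherin, was near the floor in artery, with 0 to 6 reads in a library (12 in all), and had 8 to 28 reads in the ventricle libraries (98 in all). It was the only member for which every artery library lay below every ventricle library. Its pooled reads were 6.25-fold higher in ventricle (95% exact interval 3.42 to 12.5, which covers counting error only). Cdh16 met the minimum of 0.5 only through ventricle (mean 0.907, against 0.161 in artery), so its place here depended on that excess. Its log2 difference was -0.70 ± 0.17 (SE, adjusted p = 0.0184, limma), a call lost without litter 2 or litter 6. Cdh23, which with Pcdh15 forms the tip links of hair cells in the inner ear, was at 0.988 ± 0.270 in artery and 0.806 ± 0.289 in ventricle and was not called.

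**Figure D3:**
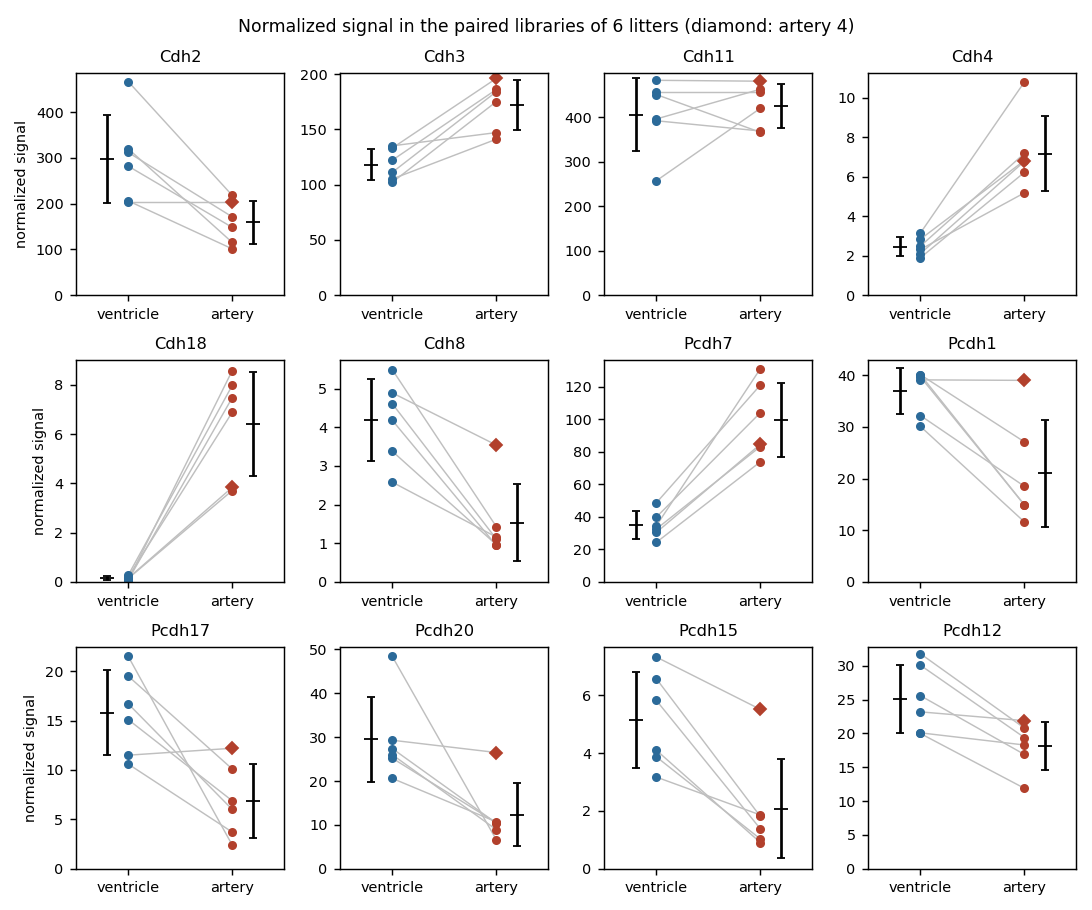
Normalized signal (vertical axes from 0) of 12 members in the ventricle and artery library of each litter, joined by lines, with the mean and SD (n = 6) beside each group. For Cdh18, Cdh4, Cdh3 and Pcdh7 all artery points lie above all ventricle points, while for Cdh8, Pcdh1, Pcdh15, Pcdh17 and Pcdh20 artery 4 (diamond) lies among the ventricle points.

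Of the 11 solitary protocadherins, 3 were higher in artery (11.6% of all genes), 5 lower (11.8% of all genes) and 3 not past the test. Pcdh7 (ENSMUSG00000029108, 5:57717967-58133230 in GRCm38, plus strand), a delta-1 protocadherin with a conserved cytoplasmic tail, had the smallest adjusted p of the family. Its signal was 73.8, 94.1 and 131 in artery and 24.3, 33.5 and 48.6 in ventricle. Every artery library lay above every ventricle library, and the ratio of the means (99.5 ± 22.8 and 35 ± 8.37) was 2.84. The log2 difference was 1.48 ± 0.10 (SE, adjusted p = 2.19e-05, limma), and it lay between 1.40 and 1.52 when any litter was left out. Per kilobase, Pcdh7 was at 9.38 in artery and 3.3 in ventricle.

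Pcdh1, another delta-1 gene, which is expressed in airway epithelium and other tissues, was lower in artery. Its signal was 11.6, 16.7 and 39 in artery and 30.1, 39.4 and 40.1 in ventricle. Artery 4 matched its litter's ventricle library (39 and 39.1), and the other 5 artery libraries lay below the ventricle range. The log2 difference was -0.89 ± 0.18 (SE, adjusted p = 0.00792, limma), and -1.07 without litter 4. The remaining delta-1 members, Pcdh9 and Pcdh11x, were low, at 3.68 ± 1.38 and 2.74 ± 1.5 in artery and 2.79 ± 0.992 and 1.52 ± 0.361 in ventricle, and were not called. Pcdh11x had 0 reads in artery 1 and 18 to 70 in the other artery libraries. Its log2 difference was 0.42 over all litters (adjusted p = 0.36, limma) and 0.79 without litter 1 (adjusted p = 0.00517, limma). Artery 1 lay below its litter's ventricle library (0.0725 and 1.85). Leaving out litter 1 thus raises the Pcdh11x difference by construction, and the p of that omission adds no support.

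Of the 4 delta-2 protocadherins, which take part in cell sorting and axon growth, Pcdh18 had the highest signal and was not called. It was at 48.9, 66.1 and 84.2 in artery and 63.3, 76.7 and 90 in ventricle (-0.23 on the log2 scale, 95% interval -0.46 to 0.0, adjusted p = 0.144, limma). The Pcdh18 log2 difference was -0.3 without litters 1 and 4, with adjusted p = 0.0425 (limma). As with Cdh13, artery 4 was the highest artery library and lay above its litter's ventricle library (84.2 and 77.3). The omission thus lowers the difference by construction, and its p adds no support. Pcdh17, known from synapses and axons of the forebrain, was at 2.39, 6.44 and 12.2 in artery and 10.6, 15.9 and 21.5 in ventricle. Artery 4 exceeded its litter's ventricle library (12.2 and 11.5), and the other 5 litters were lower in artery. Its log2 difference was -1.20 ± 0.29 (SE, adjusted p = 0.0158), lost without litter 3 or litter 5.

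Pcdh19 and Pcdh10 were higher in artery with less margin. Pcdh19, an X-linked gene of neural development, was at 5, 19.3 and 25.7 in artery and 6.66, 8.19 and 9.72 in ventricle. Artery 1 lay below all ventricle libraries while the other 5 artery libraries lay above them (log2 difference 0.88 ± 0.28, SE, adjusted p = 0.046, limma). Its call was lost without litter 2, 3, 4, 5 or 6. Pcdh10 was at 2.95, 4.51 and 7.32 in artery and 2.05, 2.47 and 3.07 in ventricle (0.64 ± 0.18, adjusted p = 0.0334), with artery 4 the library inside the ventricle range and the call lost without litter 2, 3, 5 or 6.

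The 3 solitary protocadherins outside the delta families were all lower in artery. Pcdh20 (ENSMUSG00000050505, 14:88464743-88471396 in GRCm38, minus strand), a gene known mainly from brain, was at 6.6, 10.5 and 26.5 in artery and 20.6, 26.7 and 48.4 in ventricle. Artery 4 lay within the ventricle range and the other 5 artery libraries lay below it. The means were 12.3 ± 7.15 and 29.5 ± 9.72, and on the log2 scale they differed by -1.28 ± 0.26 (SE, adjusted p = 0.00811, limma, lower in 6 of 6 litters) and -1.51 without litter 4. Pcdh15, the partner of Cdh23 in the tip link, was at 0.906, 1.59 and 5.51 in artery and 3.17, 4.96 and 7.32 in ventricle, again with artery 4 as the library in the ventricle range (-1.09 ± 0.20, adjusted p = 0.00417).

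Pcdh12, a protocadherin of endothelial cells, was lower by a small margin, at 11.9, 18.8 and 21.9 in artery and 20, 24.4 and 31.8 in ventricle. Its neighbour, 55.0 kb away, is Pcdh1. The Pcdh12 log2 difference was -0.45 ± 0.12 (SE, adjusted p = 0.0215, limma), lost without litter 2, 3 or 5, and adjusted p = 0.0525 without the litter block. Cdh5, the VE-cadherin gene that marks endothelium and is no member, was at 175 ± 44.3 in artery and 223 ± 41.1 in ventricle (-0.37 ± 0.13, adjusted p = 0.0721, limma). Over the 7 endothelial markers, Cdh5 among them, the median difference was 0.0, with 1 lower (Kdr, -0.58) and 0 higher. Their summed signal had a mean of 877 in artery and 981 in ventricle, with artery higher in 1 of 6 litters. The part of endothelial cells in the Pcdh12 difference was not tested.

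The promoter windows of Pcdh7, Pcdh17 and Pcdh20 are shown with the same marking of the 4 motifs, since these called solitary protocadherins had the largest differences in each direction on the log2(value + 1) scale. By edgeR on the reads Pcdh15 (-1.5) lay below Pcdh20 (-1.32) and Pcdh17 (-1.28). Its window, not printed, held 1 CACCTG and 1 TATAAA (13.6% of all windows). They lie at chr5:57717831-57718130 (plus strand), chr14:84443313-84443612 (plus strand) and chr14:88471347-88471646 (minus strand).
Pcdh7: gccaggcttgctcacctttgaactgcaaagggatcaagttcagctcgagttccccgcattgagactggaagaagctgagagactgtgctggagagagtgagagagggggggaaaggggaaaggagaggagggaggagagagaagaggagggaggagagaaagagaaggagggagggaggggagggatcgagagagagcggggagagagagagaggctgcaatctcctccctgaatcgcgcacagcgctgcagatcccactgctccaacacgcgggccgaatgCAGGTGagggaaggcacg
Pcdh17: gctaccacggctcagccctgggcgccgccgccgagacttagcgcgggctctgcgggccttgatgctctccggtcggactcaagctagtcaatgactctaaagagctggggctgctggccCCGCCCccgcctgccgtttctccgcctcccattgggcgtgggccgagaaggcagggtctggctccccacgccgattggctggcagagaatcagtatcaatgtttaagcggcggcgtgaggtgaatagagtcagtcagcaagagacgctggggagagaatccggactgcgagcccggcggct
Pcdh20: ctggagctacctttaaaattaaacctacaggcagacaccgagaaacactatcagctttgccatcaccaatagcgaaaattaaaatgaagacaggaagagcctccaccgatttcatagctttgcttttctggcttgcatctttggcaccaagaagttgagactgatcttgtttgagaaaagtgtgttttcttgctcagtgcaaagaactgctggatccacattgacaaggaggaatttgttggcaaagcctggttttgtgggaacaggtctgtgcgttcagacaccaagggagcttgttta
Pcdh7 held 1 E-box, CAGGTG, the other strand's reading of CACCTG, which was present in 20.2% of all windows. Pcdh17 held 1 GC box, read as CCGCCC (35.7% of all windows), and Pcdh20 held none of the 4 motifs. Pcdh17 and Pcdh20, both lower in artery and 3.93 Mb apart on chromosome 14, had unlike windows, with 65.0% and 43.7% G and C and 26 and 4 CpG dinucleotides. Windows could be matched for 16 of the 47 members.

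Artery 4 was the artery library nearest to ventricle for 9 of the 10 members that were lower in artery, the exception being Cdh2 (artery 2). Among all 1893 genes lower in artery, artery 4 held this place for 52.2%. For 7 of the 10 lower members the artery 4 value lay within the range of the ventricle libraries, as it did for 40.3% of all genes lower in artery. Without artery 4, left out after it was seen to be nearest, the groups did not overlap for 7 of the 10, against 1 of 10 with it. Over all genes lower in artery these shares were 58.4% and 30.7%. The summed epicardial and mesothelial markers of artery 4 were 3580, against 1760 to 2300 in the other artery libraries, and its summed smooth muscle markers were the lowest of the artery group at 1800. All 10 members stayed lower and called without litter 4. Among the 13 members higher in artery, artery 4 was nearest to ventricle for 2 (15.4%) and artery 5 for 6 (46.2%). Over all genes higher in artery the shares were 43.1% and 11.8%. These are descriptions and were not tested.

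**Figure D4:**
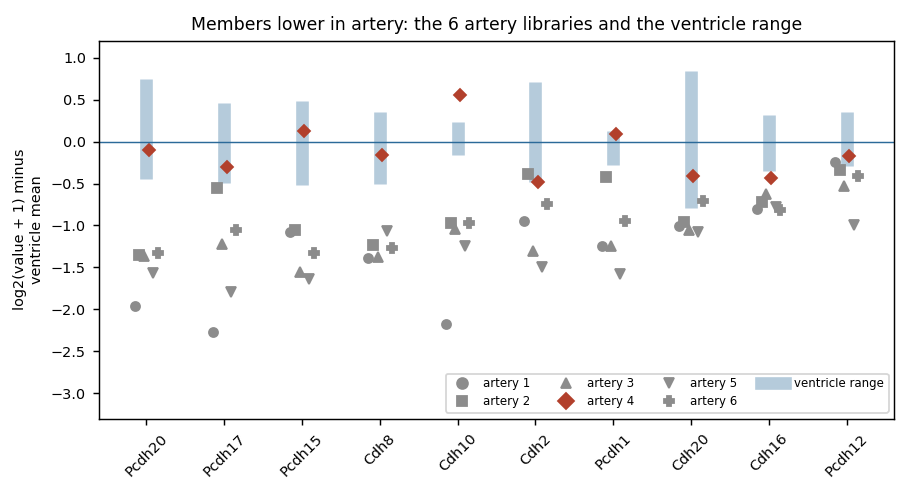
Log2(value + 1) of each artery library minus the ventricle mean for the 10 members lower in artery, with the range of the 6 ventricle libraries as a pale bar. Artery 4 (red diamond) lies inside that range for 7 of the 10 members and above it for Cdh10.

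The clustered protocadherins lie in neighbouring groups on chromosome 18, and 5 of 21 rows were higher in artery and 0 lower. The share called, 23.8%, was close to the 23.4% of all genes, so the count of calls is no result about the clusters. In the alpha and gamma groups each variable first exon is spliced to constant exons that all genes of the group share. The table held 1 member row for each of these groups. Its names for them (Pcdhac2 and Pcdhgc5) differ from those that GENCODE M21 gives to the same identifiers (Pcdha11 and Pcdhgc4). Which exons were counted in these rows is not given in the sources used here, so they are read as rows of the alpha and gamma groups and not as single isoforms. Members of the beta group are separate genes with similar coding sequences, so reads can be divided between them and their differences are not independent.

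The gamma row (Pcdhgc5) had a high signal of 273, 353 and 401 in artery and 298, 336 and 348 in ventricle. The groups overlapped throughout, and the log2 difference was 0.03 (95% interval -0.20 to 0.26, adjusted p = 0.857, limma). The alpha row (Pcdhac2) was at 2.1, 3.72 and 4.08 in artery and 0.879, 1.96 and 2.59 in ventricle. Artery 1 was the artery library within the ventricle range, and its log2 difference came to 0.65 ± 0.19 (SE, adjusted p = 0.0327, limma), lost without litter 2, 3, 4, 5 or 6.

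All 19 beta genes had a positive difference, from 0.15 (Pcdhb7) to 0.81 (Pcdhb17), with a median of 0.37. Over all tested genes 46.0% had a positive difference. The test was passed by 4 of them (21.1%, against 23.4% of all genes), and 15 did not pass. Pcdhb17, the beta gene with the highest signal, was at 10.6, 11.9 and 13.6 in artery and 5.5, 6.27 and 8 in ventricle. No artery library reached the ventricle range (0.81 ± 0.13, SE, adjusted p = 0.00256, limma). The others past the test were Pcdhb11 (0.71 ± 0.15), Pcdhb18 (0.62 ± 0.17) and Pcdhb3 (0.57 ± 0.15), each with groups that did not overlap. The calls of Pcdhb18 and Pcdhb3 were lost without litter 2 or litter 3, that of Pcdhb3 also without litter 4, 5 or 6.

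Several other beta genes lay close to the threshold. Pcdhb20, second per kilobase in the group, was at 4.53, 6.03 and 7.49 in artery and 3.44, 4.06 and 5.34 in ventricle, with artery higher in 6 of 6 litters (log2 difference 0.42, 95% interval 0.11 to 0.73, adjusted p = 0.0541, limma). Pcdhb19 had adjusted p = 0.054 at a difference of 0.58. The lowest signals of the group were those of Pcdhb2 (mean 0.54 over the libraries), Pcdhb13 and Pcdhb12, where artery 1 had 0, 0 and 3 reads. Their ventricle means (0.427, 0.418 and 0.374) lay below the minimum of 0.5, which they met only through artery. The count of beta genes past the test was 10 without litter 1 and 2 without litter 2 or litter 3, and all 19 stayed positive in each of these. Over all genes the number called was likewise highest without litter 1 and lowest without litter 3. The 4 that passed are spread over the group, with Pcdhb3 near its start, Pcdhb11 in its middle and the adjacent pair Pcdhb17 and Pcdhb18 toward its end.

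Summed over the 19 genes, the beta signal was 56.1, 66.0, 73.3, 64.7, 55.6 and 54.3 in artery 1 to 6 and 47.4, 30.9, 41.7, 40.4, 42.0 and 35.5 in ventricle 1 to 6. The means were 61.7 ± 7.58 and 39.7 ± 5.74 (SD, n = 6 each), a ratio of 1.55. The groups did not overlap, and artery was higher in 6 of 6 litters. The sum is a description over members and was not tested.

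**Figure D5:**
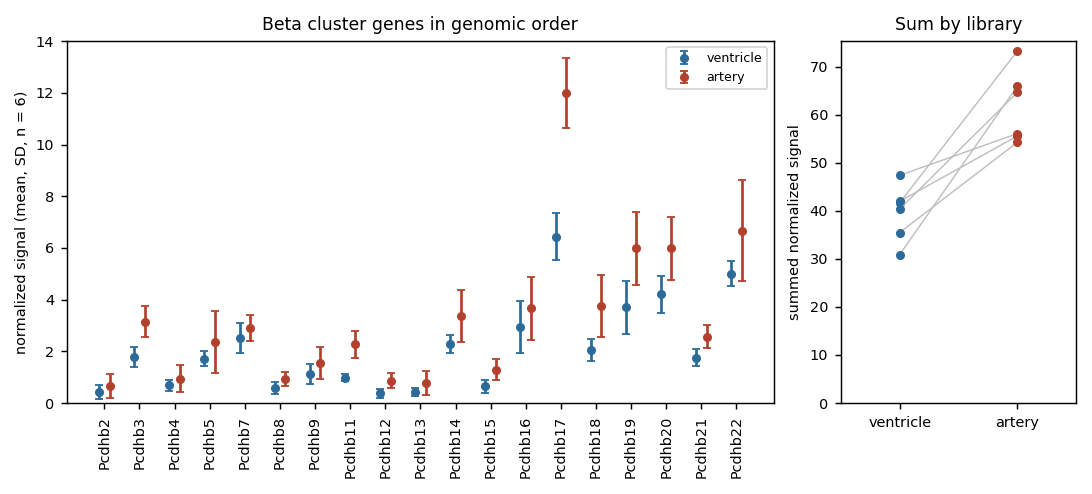
Left, normalized signal (mean and SD, n = 6) of the 19 beta cluster genes in genomic order in ventricle and artery. Right, their sum in each library, with litters joined by lines, from 30.9 to 47.4 in ventricle and from 54.3 to 73.3 in artery.

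Genes that work with cadherins were read from lists beside the members, where 11.6% of all genes were higher and 11.8% lower. Of 17 tested genes of the wider cadherin superfamily, 6 were higher in artery and 3 lower (median difference 0.17). The giant cadherin Fat4 was at 128, 180 and 221 in artery and 74.2, 84.9 and 111 in ventricle, without overlap (0.98 ± 0.12 on the log2 scale, SE, adjusted p = 0.000487, limma), and its binding partner Dchs1 was higher by 0.56 ± 0.11. The desmosomal cadherin Dsc3 was higher by 1.97 ± 0.25 from a low level (6.18 ± 2.33 against 0.806 ± 0.521), and the calsyntenin Clstn1 by 0.58 ± 0.10. The lower genes were Cdh19 (-0.94 ± 0.18), which marks Schwann cells, Clstn3 (-0.68 ± 0.17, call lost without litter 5 or 6) and Fat3 (-0.71 ± 0.20, call lost without litter 3, 5 or 6).

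Catenins and other junction partners had 1 higher and 7 lower genes of 23 tested (median difference -0.15). The delta-catenin Ctnnd2, best known from neurons, was higher by 1.53 ± 0.27 (SE, adjusted p = 0.0036, limma). Beta-catenin (Ctnnb1), which links classical cadherins to alpha-catenin, was at 901 ± 104 in artery and 720 ± 34.8 in ventricle and was not called (adjusted p = 0.0631). Alpha-catenin (Ctnna1), the link to actin, was at 279, 363 and 467 in artery and 474, 513 and 608 in ventricle, without overlap (-0.50 ± 0.11, adjusted p = 0.0102). The desmosome genes Pkp2 (-1.33 ± 0.26) and Dsp (-0.92 ± 0.20), which are strong in heart muscle and epithelia, were lower as well. The part of heart muscle and epicardial cells in these differences was not tested. The number of lower genes over the 4 lists together was 12, and 21 without litters 1 and 4. Artery 4 was the artery library nearest to ventricle for 52.2% of all genes lower in artery. The share of all genes in this omission is not given here, so the rise is no result about the lists.

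Of 16 proteases and regulators of cadherins, 3 were higher and 0 lower (median difference 0.09), a share called of 18.8%, below the 23.4% of all genes. Twist2, a factor of mesenchyme, was higher by 2.21 ± 0.20 (SE, adjusted p = 9.88e-05, limma), at 26.1, 50 and 60.4 in artery and 6.69, 9.27 and 12.1 in ventricle. Zeb2, a repressor of Cdh1, was higher by 0.56 ± 0.15 and the convertase Furin, which matures cadherin precursors, by 0.34 ± 0.11, and each call was lost in 5 of 6 omissions of a litter. Snai1 and Snai2, also repressors of Cdh1, were not called (differences 0.07 and 0.04). Of 23 genes that regulate the clustered protocadherins or signal from them, 1 was higher and 2 lower (median difference -0.15), a share called of 13.0%, also below that of all genes. Ptk2b, a kinase that binds clustered protocadherin tails, had a difference of -0.99 ± 0.15 and the cohesin subunit Rad21 one of -0.42 ± 0.11, both lower, with the Rad21 call lost without litter 2 or 3. The kinase Fyn was higher by 0.28 ± 0.08, a call lost in 4 of 6 omissions of a litter. Ctcf, whose binding directs promoter choice in the clusters, was at 82.6 ± 14 and 89.5 ± 3.59 (adjusted p = 0.41).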

How the data were processed

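RNA was measured in 12 libraries of peeled heart layers, 6 from artery and 6 from ventricle. The members, lists and tests were chosen with earlier results of these data known. Libraries were polyA RNA prepared with the NEBNext Ultra kit and sequenced as single reads of 50 bases, per the labels' protocols. CASAVA 1.8.2, cutadapt 1.3, RSEM 1.2.3 and GRCm38 are named in the submitters' processing notes. For the normalization, the sources used here give no tool.

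The deposited signal of the authors was found from its values to be (whole reads + 0.5) relative to a scaled library size, since 100% of its 211644 entries gave whole reads to within 0.02 reads. Counted this way, edgeR called 3615 genes. A gene with 0 reads is thus listed above 0 (0.0234 to 0.0725). Reads of similar genes, overlapping genes and antisense partners cannot be told apart.

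Genes with a mean of at least 0.5 (16037) were tested with limma 3.58.1 (R 4.3.3, trended and robust prior, two-sided) on log2(value + 1), with the litter as a block. The labels say that each litter's tissues were pooled separately, which pairs the libraries. The mean correlation of deviations from the tissue's mean was 0.204 for libraries sharing a litter and -0.041 for the rest. Such deviations cancel out within each tissue, so the second value largely follows from the first and is no separate contrast. By litter, the correlation between its own libraries ran from -0.013 (litter 1) to 0.374 (litter 5). For litters 2, 5 and 6 it exceeded that of the artery library with any other litter's ventricle library, and for litters 1, 3 and 4 it did not. Since each litter is a pool, the spread behind the p-values is that between pools. Libraries of a group all differed by more than sampling noise, the lowest chi-square being 11.1 per degree of freedom. The procedure was tested on simulated data. Alternatives varied the block, pseudocount, minimum, scaling, test (edgeR 4.0.16, DESeq2 1.42.0 and limma-voom on recovered reads), litters and lanes.

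Coordinates and exon lengths came from GENCODE M21 (GRCm38; 17488 of 17637 identifiers matched) and promoters from RefSeq (GRCm38.p6). Full values were given for called members with a log2 difference of at least 1 in size for up to 2 members per class with the highest level per kilobase, and for the highest of each gene cluster. Of each pathway list, up to 3 genes per direction with the smallest p were named. Values of other members, of Dchs1, Ctnnb1, Snai1, Snai2 and Ctcf, and the artery 4 pattern were chosen after they were seen. Intervals on reads cover counting error only.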

Additional observations from a re-analysis of the deposited data

Results flagged for a closer look

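In groups of 6 libraries, 5 values of members stood apart from the others of their group by more than Dixon's 95% critical value, among 94 groups examined, where chance flags about 1 in 20. Artery 4 was the highest artery library in 3 of them, for Cdh8 (3.54, with the next at 1.43), Pcdh20 (26.5, next 10.7) and Pcdh15 (5.51, next 1.86). All 3 genes were lower in artery, and the artery 4 values lay within the ventricle range. Artery 1 was the lowest artery library for Pcdh11x (0.0725, which stands for 0 reads, with the next at 2.42). Ventricle 2 was the lowest ventricle library for Cdh11 (257, next 392).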

How the results depend on the processing

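All 23 called members kept their direction in every alternative in which they were tested. With edgeR, DESeq2 and the TMM, median-ratio and upper-quartile scalings, 23 of 23 kept their call. The calls kept were 22 of 23 with limma-voom and with a pseudocount of 0.5, 21 of 23 with a pseudocount of 0.25 and with no minimum, and 22 of the 22 tested with a minimum of 1. The number of all genes called was 3760 with limma, 3615 with edgeR, 4245 with DESeq2 and 3945 with limma-voom. Without the replicate block, which pairs libraries by litter, the number of all genes called was 3711, with 16 members higher and 9 lower. Pcdh12 lost its call there, and Pcdhb19, Pcdhb15 and Pcdhb12 passed.

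Single litters moved the counts. Leaving out 1 litter at a time, all genes called ranged from 2247 (without litter 3) to 4675 (without litter 1), all genes higher in artery from 1205 to 2336 and all genes lower in artery from 1042 to 2339. Members higher in artery ranged from 7 to 20 and members lower in artery from 6 to 10. Genes of the pathway lists higher in artery ranged from 7 to 11 and those lower from 6 to 16. In the 3 litters of lane 2, 1790 genes were called (all genes higher in artery 1061, all genes lower in artery 729), with 0 members and 2 pathway genes lower. Without litters 1 and 4, 21 pathway genes were lower, a count given here without the share of all genes. The cause of these shifts was not tested.

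Sign changes touched members that were not called. The Cdh1 log2 difference (-0.17) was 0.26 in the litters of lane 2. It was 0.05 in litters 2 to 5, which is the set without litters 1 and 6, and ranged from -0.33 to 0.01 with 1 litter left out. The Cdh11 log2 difference (0.09) ranged from -0.03 (without litter 2) to 0.17. The Pcdhgc5 log2 difference (0.03) ranged from -0.03 (without litter 4) to 0.1, and was -0.05 without litters 1 and 4. The depth of artery 1 and artery 6 limits low genes, where 0 reads are listed as 0.0655 to 0.0725. Artery 1 was also the artery library most often lowest (35.6% of all tested genes) and most often highest (26.5%). For artery 6, of similar depth, these shares were 16.2% and 19.5%. What sets artery 1 apart was not tested.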
